A study of Danio rerio with 8 samples.

Results

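DNA repair and Fanconi genes were examined in RNA-seq gene counts from zebrafish melanomas and from the cells that the labels call scale melanocytes. The members were 41 named zebrafish genes, found among the rows of the deposited counts table through a table that pairs Ensembl identifiers with symbols. Of the 41 symbols 36 matched, and because the symbol ung was carried by 2 rows the set held 37 of the 28272 rows. The genes chek1, mre11a, fanca, xrcc5 and msh6 were not analysed here. All 37 rows passed the filter on low counts.

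Cells repair DNA by separate routes. Breaks across both strands are sensed by the MRN complex and the kinases ATM and ATR, and are mended either by homologous recombination, which copies a sister chromatid, or by end joining, which ligates the ends. The Fanconi pathway removes crosslinks between the strands, nucleotide excision repair cuts out bulky lesions such as those made by ultraviolet light, mismatch repair corrects replication errors, and base excision repair replaces damaged bases. In skin pigment cells, nucleotide excision repair is the route best known for its part in protection from sunlight and from melanoma. Roles given below are those of the human counterpart of each gene unless another species is named.

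Each group held 4 libraries, all labelled as from adult fish of 1 strain, so the labels name the same alleles for both groups. The strain carried 2 transgenes, mitfa:BRAFV600E and mitfa:EGFP, which place an oncogenic form of the kinase BRAF and a fluorescent protein under the promoter of mitfa, a gene of the pigment cell lineage. It also carried the p53 allele p53(zdf1), in a regulator of the response to DNA damage, and the pigment allele alb(b4). The first group was melanoma and the second scale melanocytes, both collected by sorting EGFP-positive cells that lacked pigment. Whether each library was made from its own fish is not stated. The p-values rest on the spread among the 4 libraries of a group, which may be technical.

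Libraries held between 86888494 and 100270657 counts. Levels below are CPM, counts scaled to a library of common size with TMM factors (a correction for libraries dominated by few transcripts), and values for melanoma are listed from replicate 1 to replicate 4. Values for the scale melanocytes are listed as replicate 1, replicate 2, and libraries 3a and 3b, the 2 columns that both bear the name of replicate 3. These are called the scale libraries here, because their transcripts go against the label in part. Among pigment cell markers 9 of 10 rows were higher in melanoma, with sums of 2060 to 12126 CPM in melanoma against 74.9 to 125 CPM in the scale libraries, where mc1r was at 0 in replicate 2. All 9 epidermis marker rows were lower in melanoma, with sums of 26.8 to 199 CPM in melanoma against 28721 to 54517 CPM in the scale libraries, and so were all 10 fibroblast and scale bone marker rows, at 3.64 to 45.2 against 408 to 8099 CPM. The differences below and a change of cell mixture cannot be told apart, nor in bulk libraries can fewer cells of a type and less RNA per cell.

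Many DNA repair transcripts were more abundant in melanoma. Of the 37 rows 16 were higher in melanoma and 0 lower at an adjusted p under 0.05 in edgeR's quasi-likelihood test, adjusted by the Benjamini-Hochberg method over 26749 genes. Over all genes 21.7% were called higher and 15.2% lower. Without adjustment, 25 rows were higher and 0 lower at p under 0.05, beside 7061 and 5394 of the 26749 genes. DESeq2 called 19 rows higher and 0 lower, where it called 21.8% of all genes higher. On the log2 scale the median difference of the 37 rows was 1.25, against 0.05 over all genes, and their differences ran from -1.04 to 5.64. In 15 rows every melanoma library lay above every scale library and in 0 rows below, where 21.7% and 15.2% of all genes tested did so.

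These counts moved with the choice of libraries and with the scaling. Scale replicate 2 and library 3b were the less complex scale libraries, with 22836 and 22537 genes at 10 counts or more. When both were dropped 10 rows were called higher, where 17.8% of all genes were. With total counts alone 30 rows were, where 40.6% of all genes were. That scaling moved the median of all genes to 1.17. Upper quartile scaling moved it to -0.39, and there 11 rows and 15.1% of all genes were called higher. The median of the 37 rows lay between 1.09 and 1.56 above that of all genes in the settings that tested all 37, and that of the 24 rows left by a filter of 5 CPM in 4 libraries lay 0.64 above it. That filter could be met by the 4 melanoma libraries alone. Standard errors are approximate, derived from each gene's change and F statistic. Reads of overlapping genes cannot be told apart where strand was not used, and 11 members overlapped a protein-coding gene in the RefSeq annotation of GRCz12tu, among them 7 of those called (chek2, ddb2, fanci, lig3, parp1, rad54l and xrcc6).

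**Figure D1:**
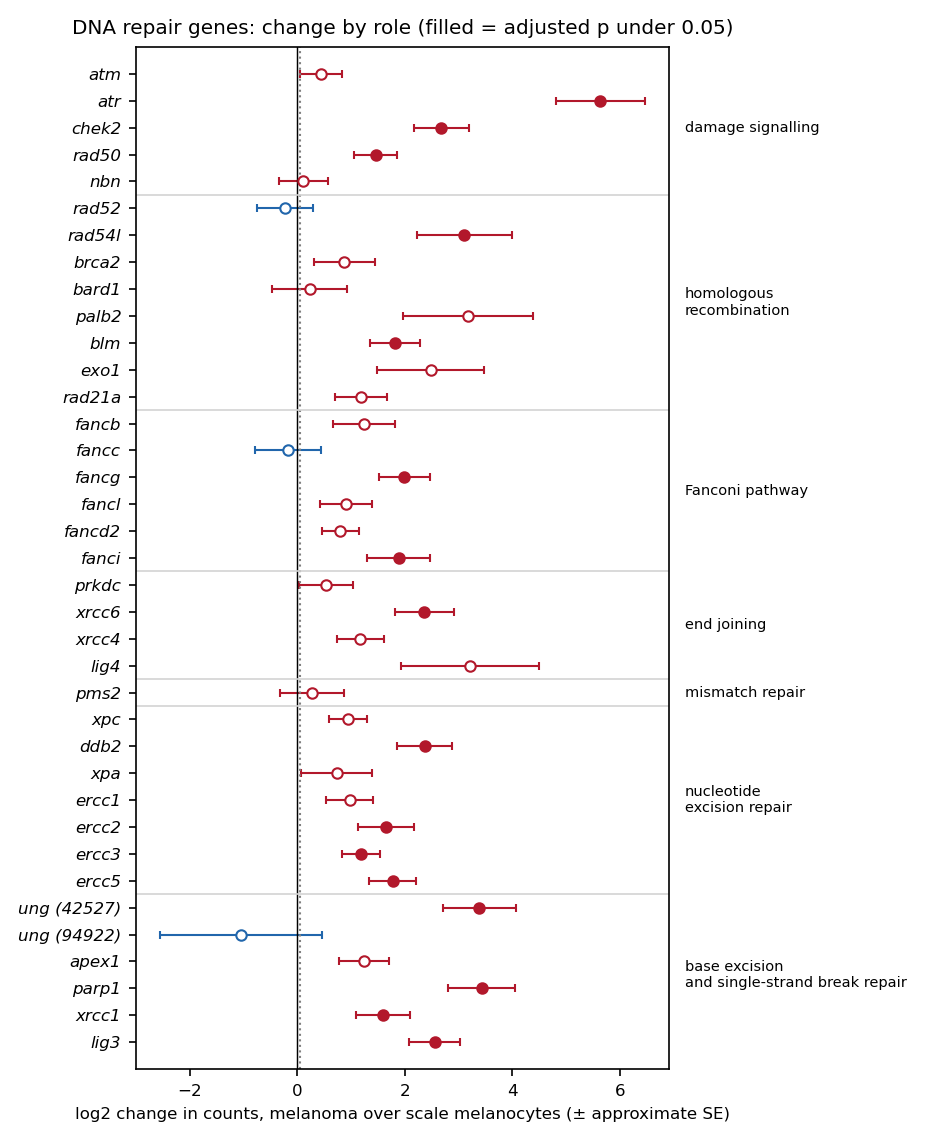
Log2 change in counts, melanoma over scale melanocytes, for each of the 37 rows, ordered by role, with the approximate SE as bars and the last digits of the identifier beside ung. Filled points passed an adjusted p of 0.05 and open points did not; the dotted line marks the median of all genes tested, 0.05. The 16 filled points all lie right of 0, with atr farthest at 5.64.

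Among the damage signalling genes 3 of 5 rows rose, beside 21.7% of all genes. The kinase gene atr (ENSDARG00000079625), whose product responds to stalled replication forks and resected breaks, had 49.9, 258, 754 and 658 CPM in melanoma, against 13.1, 10.4, 7.42 and 3.69 CPM in the scale libraries. Every melanoma library lay above every scale library, although melanoma replicate 1 had the lowest melanoma value by a wide margin. The change was the largest of any member (change 5.64 ± 0.83 on the log2 scale, adjusted p = 0.000339). In RefSeq GRCz12tu atr overlaps a non-coding gene, LOC141378030, whose part in the count was not tested. The checkpoint kinase gene chek2 (ENSDARG00000025820), whose product is activated by ATM, had 4.0, 17.2, 17.5 and 16.2 CPM in melanoma, against 1.77, 1.84, 3.25 and 1.70 CPM in the scale libraries. Here too the groups did not overlap, with melanoma replicate 1 just above the highest scale library (change 2.68 ± 0.51 on the log2 scale, adjusted p = 0.00171). The gene rad50 (ENSDARG00000038917), for the coiled-coil subunit of the MRN complex that tethers broken ends, had 6.06, 16.8, 13.5 and 14.6 CPM in melanoma, against 5.13, 3.65, 5.51 and 4.13 CPM in the scale libraries. The groups did not overlap and the change was smaller (change 1.47 ± 0.40 on the log2 scale, adjusted p = 0.0132). Its call was lost without scale replicate 2 (adjusted p = 0.0509), when both less complex scale libraries were dropped (0.0767) and with upper quartile scaling (0.0596).

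The remaining signalling genes did not pass. The kinase gene atm, for the first responder to double-strand breaks, averaged 10.9 ± 0.805 CPM in melanoma and 8.01 ± 3.35 CPM in the scale libraries (SD, n = 4 each), a change of 0.44 ± 0.39 on the log2 scale (adjusted p = 0.390). The MRN subunit gene nbn averaged 3.25 ± 1.02 CPM in melanoma and 3.0 ± 0.995 CPM in the scale libraries (SD, n = 4 each), a change of 0.11 ± 0.45 on the log2 scale (adjusted p = 0.864). Melanoma and scale values of both genes overlapped. The difference between atm and atr in their change was not tested.

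In homologous recombination 2 of 8 genes rose (25.0%), a share near the 21.7% of all genes called higher. The gene rad54l (ENSDARG00000018623), for a DNA translocase that helps the broken strand invade the intact copy, had 1.16, 10.4, 17.2 and 7.19 CPM in melanoma, against 1.53, 0.0667, 1.23 and 1.30 CPM in the scale libraries. Melanoma replicate 1 lay within the range of the scale libraries and the other 3 melanoma libraries lay above it (change 3.11 ± 0.88 on the log2 scale, adjusted p = 0.0159). The call was lost when the less complex scale libraries were dropped (adjusted p = 0.0543) and with limma-voom (0.0641). The helicase gene blm (ENSDARG00000077089), whose product dissolves recombination intermediates, had 57.7, 189, 98.5 and 53.7 CPM in melanoma, against 38.7, 24.0, 31.7 and 18.5 CPM in the scale libraries. All melanoma libraries lay above all scale libraries (change 1.82 ± 0.46 on the log2 scale, adjusted p = 0.00898), a call that was lost when both less complex scale libraries were dropped (adjusted p = 0.0877).

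The large but uncalled changes in this group were in genes at 1.59 CPM or less in every scale library. The gene palb2, whose product links BRCA1 to BRCA2, had 0.367, 3.14, 8.79 and 3.23 CPM in melanoma, against 0.453, 0.0445, 1.17 and 0 CPM in the scale libraries (change 3.18 ± 1.21 on the log2 scale, adjusted p = 0.0567). It passed without melanoma replicate 1 (adjusted p = 0.0301) and when scale library 3a was dropped (0.0283). With all libraries it passed under DESeq2 (0.00498), RLE size factors (0.0474), the authors' size factors (0.0470) and total counts (0.0334). The exonuclease gene exo1, which resects broken ends and serves mismatch repair, had 0.348, 3.31, 8.96 and 4.26 CPM in melanoma, against 1.59, 0.978, 0.391 and 0.0419 CPM in the scale libraries (change 2.49 ± 0.99 on the log2 scale, adjusted p = 0.0684). Melanoma replicate 1 was again among the low libraries, and without it exo1 passed (adjusted p = 0.0239). With all libraries exo1 passed under DESeq2 (0.0162) and total counts (0.0217).

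The gene rad21a, for the cohesin subunit that closes the ring around sister chromatids, had 43.1, 80.9, 209 and 73.3 CPM in melanoma, against 30.0, 62.4, 32.4 and 53.5 CPM in the scale libraries. Melanoma replicate 3 stood high and the groups overlapped (change 1.19 ± 0.49 on the log2 scale, adjusted p = 0.0768). Without melanoma replicate 1 it passed (adjusted p = 0.0278), and without melanoma replicate 3 its log2 change was 0.57. The other central recombination genes did not pass. The gene brca2, whose product readies the broken ends for strand exchange, averaged 2.02 ± 1.02 CPM in melanoma and 1.1 ± 0.247 CPM in the scale libraries (SD, n = 4 each), a change of 0.88 ± 0.56 on the log2 scale (adjusted p = 0.241). The gene bard1, for the partner of BRCA1, averaged 4.20 ± 1.70 CPM in melanoma and 3.57 ± 2.49 CPM in the scale libraries (SD, n = 4 each), a change of 0.23 ± 0.69 on the log2 scale (adjusted p = 0.815). The gene rad52, for a strand annealing factor in yeast, averaged 5.68 ± 3.44 CPM in melanoma and 6.64 ± 1.78 CPM in the scale libraries (SD, n = 4 each), a change of -0.22 ± 0.53 on the log2 scale (adjusted p = 0.762). In all 3 genes the groups overlapped. The sign of bard1 turned with upper quartile scaling and when melanoma replicate 3 or scale library 3b was dropped, and that of rad52 with total counts and without melanoma replicate 1.

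**Figure D2:**
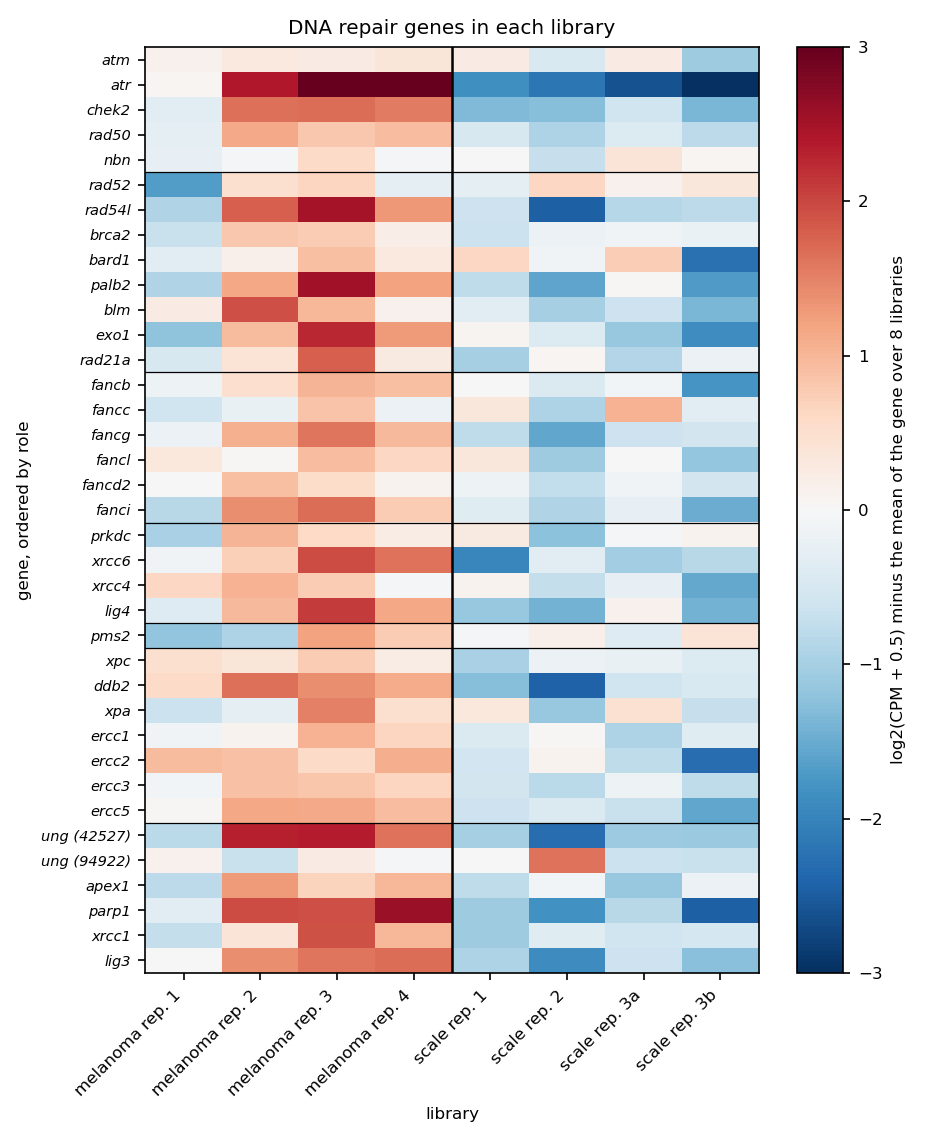
Level of each row in each library as log2(CPM + 0.5) minus the mean of that gene over the 8 libraries, red above and blue below it, with melanoma on the left of the black line. Melanoma replicate 1 is paler or bluer than the other 3 melanoma columns in most rows, and the lowest of the 4 in 31 of 37.

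Of the 6 Fanconi genes measured 2 rose, 1 from the core complex and 1 from the pair of proteins that it ubiquitinates, a share of 33.3% beside 21.7% of all genes. The core complex gene fancg (ENSDARG00000024967) had 4.68, 11.7, 17.2 and 11 CPM in melanoma, against 2.92, 1.49, 3.30 and 3.5 CPM in the scale libraries. Every melanoma library lay above every scale library (change 1.99 ± 0.47 on the log2 scale, adjusted p = 0.00636). The gene fanci (ENSDARG00000026224), for a partner of FANCD2 on damaged chromatin, had 2.03, 11.3, 13.9 and 7.15 CPM in melanoma, against 2.99, 1.91, 3.27 and 1.11 CPM in the scale libraries. Melanoma replicate 1 lay within the scale range (change 1.89 ± 0.59 on the log2 scale, adjusted p = 0.0252). The call of fanci was lost when any of 5 libraries was left out. These were melanoma replicates 2 (adjusted p = 0.0568) and 3 (0.0767), scale replicates 1 (0.0514) and 2 (0.0628) and scale library 3b (0.0601). It was also lost with limma-voom (0.0973), with upper quartile scaling (0.0750) and without the less complex scale libraries (0.145).

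Its partner gene fancd2 (ENSDARG00000053574) did not pass although the groups did not overlap. Its values were 43.1, 82.4, 64.3 and 47.2 CPM in melanoma, against 39.3, 26.0, 40.8 and 29.8 CPM in the scale libraries (change 0.80 ± 0.34 on the log2 scale, adjusted p = 0.0841). The core complex gene fancb had 2.32, 3.92, 5.82 and 5.36 CPM in melanoma, against 2.65, 1.82, 2.43 and 0.419 CPM in the scale libraries, with the lowest melanoma library inside the scale range (change 1.25 ± 0.58 on the log2 scale, adjusted p = 0.113). The ubiquitin ligase gene fancl averaged 7.06 ± 2.03 CPM in melanoma and 3.74 ± 2.12 CPM in the scale libraries (SD, n = 4 each), a change of 0.92 ± 0.48 on the log2 scale (adjusted p = 0.155). The gene fancc, also of the core complex, averaged 2.40 ± 1.42 CPM in melanoma and 2.69 ± 1.84 CPM in the scale libraries (SD, n = 4 each), a change of -0.17 ± 0.61 on the log2 scale (adjusted p = 0.847), and its sign turned with total counts and without melanoma replicate 1 or scale library 3a.

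Among 4 end joining genes 1 rose (25.0%), again near the 21.7% of all genes. The gene xrcc6 (ENSDARG00000071551), for the Ku70 subunit that caps broken ends, had 5.72, 10.4, 25.2 and 20.0 CPM in melanoma, against 1.2, 4.73, 2.73 and 3.23 CPM in the scale libraries. The groups did not overlap (change 2.37 ± 0.55 on the log2 scale, adjusted p = 0.00577). The ligase gene lig4, whose product seals the joined ends, was near the floor in the scale libraries. Its values were 0.519, 2.11, 5.20 and 2.50 CPM in melanoma, against 0.107, 0, 0.964 and 0 CPM in the scale libraries (change 3.22 ± 1.28 on the log2 scale, adjusted p = 0.0679). Without scale library 3a, the highest scale library for this gene, it passed with a log2 change of 5.80 (adjusted p = 0.00605). With all libraries it passed under limma-voom (0.0290) and total counts (0.0414). It also passed with the replicate number as a block, libraries 3a and 3b taken as 3 and 4 (0.0294). The ligase cofactor gene xrcc4 had 15.3, 20.7, 17.1 and 9.52 CPM in melanoma, against 10.6, 5.82, 8.20 and 3.06 CPM in the scale libraries, with only melanoma replicate 4 inside the scale range (change 1.17 ± 0.44 on the log2 scale, adjusted p = 0.0520). It passed without melanoma replicate 4 (adjusted p = 0.0440) and without scale replicate 1 (0.04998). With all libraries it passed under DESeq2 (0.0380), limma-voom (0.0475), total counts (0.00639) and that same replicate block (0.0380).

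The gene prkdc, for the kinase that Ku recruits, averaged 8.97 ± 4.63 CPM in melanoma and 6.16 ± 2.49 CPM in the scale libraries (SD, n = 4 each), a change of 0.54 ± 0.51 on the log2 scale (adjusted p = 0.424) and did not pass. For mismatch repair the only member measured was pms2, whose product nicks the new strand. It had 1.55, 1.93, 10.3 and 7.37 CPM in melanoma, against 4.0, 4.65, 3.05 and 5.70 CPM in the scale libraries. The 4 melanoma values spread on both sides of the scale range (change 0.28 ± 0.60 on the log2 scale, adjusted p = 0.735), and the sign of the change turned in 7 of the settings tried.

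In nucleotide excision repair 4 of 7 genes rose, beside 21.7% of all genes. The changes were positive in every setting in which each gene was tested, and xpa was not tested under the 5 CPM filter. The gene ddb2 (ENSDARG00000041140), for a sensor of ultraviolet lesions in chromatin, had 12.8, 27.4, 22.8 and 18.8 CPM in melanoma, against 3.19, 1.16, 5.41 and 6.02 CPM in the scale libraries. Melanoma lay above the scale libraries throughout (change 2.37 ± 0.51 on the log2 scale, adjusted p = 0.00341). The nuclease gene ercc5 (ENSDARG00000023678), which makes the 3′ incision, had 6.48, 14.8, 14.6 and 12.6 CPM in melanoma, against 3.96, 4.56, 3.82 and 1.82 CPM in the scale libraries (change 1.77 ± 0.43 on the log2 scale, adjusted p = 0.00689). Again the groups did not overlap and melanoma replicate 1 was the lowest melanoma library. The helicase gene ercc2 (ENSDARG00000021985), of the TFIIH complex that opens the helix, had 12.8, 12.3, 9.79 and 14.2 CPM in melanoma, against 4.15, 6.98, 3.59 and 0.923 CPM in the scale libraries (change 1.65 ± 0.52 on the log2 scale, adjusted p = 0.0264). In this gene melanoma replicate 1 was not the lowest of its group. The second TFIIH helicase gene, ercc3 (ENSDARG00000002402), had 19.5, 38.9, 37.4 and 32.7 CPM in melanoma, against 14.1, 11.6, 18.5 and 12.1 CPM in the scale libraries (change 1.19 ± 0.35 on the log2 scale, adjusted p = 0.0182).

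Both helicase calls depended on single libraries, on the scaling and on the filter. That of ercc2 was lost without melanoma replicate 4 (adjusted p = 0.0605), scale replicate 1 (0.0740) or scale library 3a (0.0851). That of ercc3 was lost without scale replicate 1 (0.0746), scale replicate 2 (0.0778) or scale library 3b (0.0570), and without the less complex scale libraries (0.104). With upper quartile scaling ercc2 (0.0864) and ercc3 (0.0967) lost the call, as they did with the 5 CPM filter (0.0962 and 0.176). The lesion sensor gene xpc did not pass although its melanoma libraries, at 11.1, 10.2, 13.6 and 9.16 CPM, all lay above its scale libraries, at 3.72, 6.80, 6.59 and 5.70 CPM (change 0.95 ± 0.35 on the log2 scale, adjusted p = 0.0541). With all libraries xpc passed under limma-voom (0.0461) and total counts (0.000888). The gene ercc1, for a subunit of the 5′ nuclease, averaged 6.35 ± 2.51 CPM in melanoma and 3.22 ± 0.970 CPM in the scale libraries (SD, n = 4 each), a change of 0.98 ± 0.44 on the log2 scale (adjusted p = 0.0992). The gene xpa, for a scaffold at the lesion, averaged 3.58 ± 2.85 CPM in melanoma and 2.15 ± 1.30 CPM in the scale libraries (SD, n = 4 each), a change of 0.73 ± 0.66 on the log2 scale (adjusted p = 0.402). Neither passed.

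In base excision and single-strand break repair 4 of 6 rows rose (66.7%), beside 21.7% of all genes. The gene parp1 (ENSDARG00000019529), for the polymerase that marks single-strand breaks with poly(ADP-ribose), had 9.07, 45.2, 44.9 and 71.1 CPM in melanoma, against 5.11, 2.85, 6.17 and 1.66 CPM in the scale libraries. All melanoma libraries lay above all scale libraries (change 3.43 ± 0.63 on the log2 scale, adjusted p = 0.00129). The ligase gene lig3 (ENSDARG00000052553) had 8.96, 24.4, 28.2 and 29.7 CPM in melanoma, against 4.45, 2.02, 5.57 and 3.42 CPM in the scale libraries (change 2.56 ± 0.47 on the log2 scale, adjusted p = 0.00141). Its groups did not overlap either. The scaffold gene xrcc1 (ENSDARG00000009494), whose product binds LIG3, had 8.99, 19.8, 58.3 and 30.4 CPM in melanoma, against 6.95, 11.6, 9.84 and 10.3 CPM in the scale libraries. Melanoma replicate 1 lay among the scale libraries (change 1.60 ± 0.51 on the log2 scale, adjusted p = 0.0264). The call of xrcc1 was lost without any one of melanoma replicates 3 and 4 and the 4 scale libraries, with adjusted p between 0.0523 and 0.113. Its log2 change was 1.04 without melanoma replicate 3. The call was also lost with limma-voom (0.0712), upper quartile scaling (0.0828) and the 5 CPM filter (0.0989), and without the less complex scale libraries (0.0784).

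Of the rows named ung, for the glycosylase that removes uracil from DNA, ENSDARG00000042527 rose and ENSDARG00000094922 was near the floor. The first had 2.74, 28.1, 28.9 and 17.2 CPM in melanoma, against 2.35, 0.667, 2.19 and 2.12 CPM in the scale libraries. Its groups did not overlap, with melanoma replicate 1 close to the scale libraries (change 3.39 ± 0.68 on the log2 scale, adjusted p = 0.00235). The second had 0.373, 0, 0.451 and 0.276 CPM in melanoma, against 0.307, 1.98, 0.0122 and 0 CPM in the scale libraries (change -1.04 ± 1.5 on the log2 scale, adjusted p = 0.609), and its sign turned in 6 settings. Similar copies may exchange reads. The endonuclease gene apex1, which cuts at the site left by a glycosylase, had 6.83, 30.3, 19.6 and 25.0 CPM in melanoma, against 7.05, 11.6, 5.27 and 10.7 CPM in the scale libraries (change 1.24 ± 0.47 on the log2 scale, adjusted p = 0.0557). It passed without melanoma replicate 1 (adjusted p = 0.00868).

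**Figure D3:**
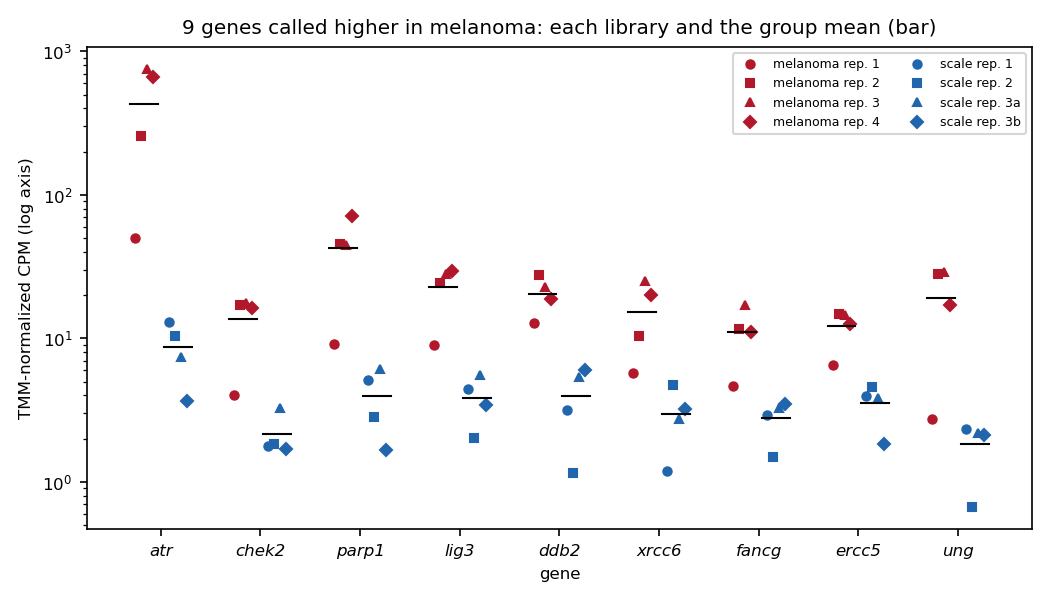
Level of 9 genes in each library as TMM-normalized CPM on a log axis, melanoma in red left of the scale libraries in blue, with the group mean as a bar. These are the called members that stayed called in every setting in which they were tested; for each gene the 4 melanoma points lie above the 4 scale points.

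The genes atr, chek2, fancg, xrcc6, ddb2, ercc5, parp1, lig3 and ung (ENSDARG00000042527) were the 9 of 16 called rows that kept direction and call in every setting in which they were tested. In the setting with the 5 CPM filter, rows could enter through the melanoma libraries alone, so a call kept there adds little. The other 7 (rad50, rad54l, blm, fanci, ercc2, ercc3 and xrcc1) each lost the call in at least 1.

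Melanoma replicate 1 differed from the other melanoma libraries across the set. It was the lowest melanoma library in 31 of the 37 rows (83.8%), where it was lowest in 31.3% of all genes tested, and the highest in 0. Its members lay at a median log2 difference of -1.25 from the mean of the other 3 melanoma libraries, against -0.07 over all genes. With upper quartile scaling it was lowest in 27 rows (73.0%, against 23.8% of all genes). In 21 of the 37 rows melanoma replicate 1 stood at or below the highest scale library, while melanoma replicates 2, 3 and 4 did so in 8, 3 and 7 rows. The like counts over all genes were not made, so these counts have no background beside them. Leaving it out gave 20 rows called higher and 0 lower, among them all 16 called with it, where 21.4% of all genes were called higher.

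Other transcripts moved with this library. Replication and division genes were at a mean log2 level of 2.84 in this library and of 4.81 to 5.67 in melanoma replicates 2 to 4, and it was the lowest melanoma library in 23 of their 24 rows. Leukocyte markers were at a mean log2 level of 6.40 in it against 3.6 to 4.81, with all 5 matched rows of 10 listed genes highest there, and their sums were 2350 CPM against 236 to 982 CPM. The leukocyte phosphatase gene ptprc was at 92.9 CPM in melanoma replicate 1, against 18.6, 8.76 and 27.7 CPM in replicates 2 to 4. The erythroid haem synthesis gene alas2 was at 129 CPM in it, against 0.189, 0.819 and 1.90 CPM in the others. Summed erythrocyte and endothelium markers, 7 rows, were at 241 CPM against 8.19 to 13.4 CPM. Melanoma replicate 1 was the highest melanoma library in 4 of these rows and melanoma replicate 3 in 3. Pigment cell markers summed to 2060 CPM in melanoma replicate 1 and to between 5414 and 12126 CPM in the other 3. None of these leukocyte or erythrocyte marker rows was at 0 in any melanoma library. The part of other cell types or of division in the lower repair levels of this library was not tested.

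**Figure D4:**
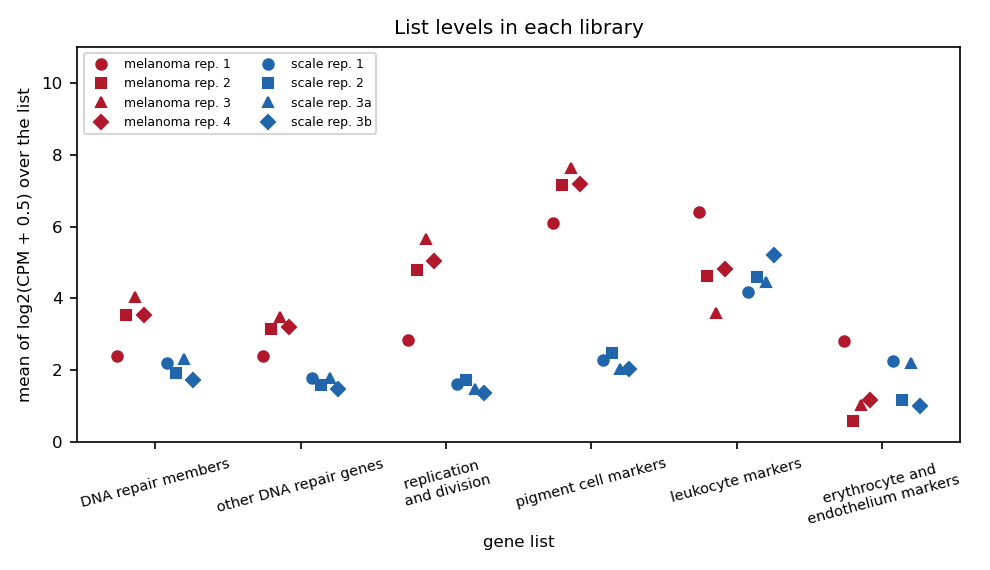
Mean of log2(CPM + 0.5) over each gene list in each library, melanoma in red left of the scale libraries in blue. Melanoma replicate 1 (red circle) is the lowest melanoma library for the repair, replication and pigment lists and the highest for the leukocyte and the erythrocyte and endothelium lists.

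The other genes of these pathways were followed with a list of 122 symbols, of which 104 matched a row. Of 104 rows tested 59 were higher and 1 lower in melanoma, again beside 21.7% and 15.2% of all genes, and their median change was 1.71 on the log2 scale. In homologous recombination 12 of 25 rows rose, among them smc5 (log2 change 2.86), for a subunit of a complex that resolves joint molecules. Chosen after its values were seen, the partner gene smc6 changed by -0.99 (adjusted p = 0.187) and did not pass. In the Fanconi pathway 9 of 14 rose, among them ube2t (4.17), for the enzyme that passes ubiquitin to FANCD2, and usp1 (3.46), for the protease that removes it. Picked once values were known, fance (3.35), a core complex gene, and wdr48 (2.54), for the activator of USP1, rose too.

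Of 5 further end joining genes 3 rose, where 21.7% of all genes were called higher and 15.2% lower. They included dclre1c (2.63), for the Artemis nuclease, and parp3 (3.61), for a poly(ADP-ribose) polymerase. The change of parp3 was 2.98 without scale replicate 2 and 4.25 without scale library 3b. Mismatch repair had 3 of 5 rows higher and 0 lower. Base excision repair had 9 of 17 higher, led by the flap nuclease gene fen1 (5.07) and the glycosylase gene nthl1 (3.60). Without melanoma replicate 3 the change of fen1 was 4.48. Among direct reversal and lesion bypass genes 3 of 9 rose (33.3%), again beside 21.7% of all genes, with the demethylase gene alkbh2 (2.58) and the bypass polymerase gene polh (2.3).

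Further damage signalling genes had 11 of 15 rows higher and 1 lower, beside 21.7% and 15.2% of all genes. The ATR partner gene atrip (2.15) and rad17 (3.48), for the loader of the checkpoint clamp, rose. The clamp gene rad9b changed by -2.16 (adjusted p = 0.0422), a call that was lost without any of 5 libraries, with adjusted p between 0.0567 without scale replicate 2 and 0.110 without melanoma replicate 4. Its change was -2.94 without melanoma replicate 3. The others whose omission lost it were melanoma replicates 1 (0.0693) and 2 (0.0654) and scale replicate 1 (0.0669).

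Further nucleotide excision repair genes had 9 of 15 rows higher and 0 lower, beside 21.7% and 15.2% of all genes. First by adjusted p were gtf2h3 (3.33) and cdk7 (3.02), both of TFIIH. Grouped once values were known, 8 of 9 measured TFIIH rows rose, ercc2, ercc3, gtf2h1, gtf2h3, gtf2h4, gtf2h5, cdk7 and ccnh, with changes between 1.19 and 3.33. The last, the assembly factor gene mnat1, was at 1.15 ± 0.63 (adjusted p = 0.169, and 0.0495 without scale replicate 1). TFIIH also serves transcription. All 3 genes of the single-strand binding complex RPA, grouped likewise, rose: rpa1 by 1.57, rpa2 by 2.20 and rpa3 by 3.55. The call of rpa1 was lost without scale replicate 1 (adjusted p = 0.0678) or when scale library 3a was dropped (0.0692).

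Genes that act with cohesin, as rad21a does, had 10 of 14 rows higher and 0 lower, beside 21.7% and 15.2% of all genes. Their median change was 1.72 on the log2 scale. The ring subunit gene smc1a (ENSDARG00000058203) changed by 3.07, and cdca5, for the factor that holds cohesin on replicated DNA, by 6.24. When scale replicate 1 was left out 6 of the cohesin rows were called higher, where 14.6% of all genes were. Replication and division genes, which many recombination genes accompany in the cell cycle, had 23 of 24 rows higher and 0 lower, with a median of 4.06, among them tpx2 (5.28) and cdk1 (4.80). Their summed level was between 228 and 1929.5 CPM in melanoma and between 85.5 and 149 CPM in the scale libraries. The part of division in the rise of the repair genes was not tested.

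Genes induced after DNA damage, many of them targets of p53, held calls in both directions. Of 19 rows 4 were higher (21.1%) and 6 lower (31.6%) in melanoma, beside 21.7% and 15.2% of all genes, and their median change was -0.44 on the log2 scale. The cell cycle inhibitor gene cdkn1a (ENSDARG00000076554) had 4.96, 8.74, 5.52 and 3.85 CPM in melanoma, against 17.6, 34.3, 25.9 and 47.4 CPM in the scale libraries. The groups did not overlap and melanoma was lower (change -2.44 ± 0.42 on the log2 scale, adjusted p = 0.000897). The cyclin gene ccng1 (ENSDARG00000076667) had 103, 228, 92.5 and 115 CPM in melanoma, against 674, 1289, 403 and 847 CPM in the scale libraries, again with melanoma below (change -2.58 ± 0.50 on the log2 scale, adjusted p = 0.00178). Picked once values were known, phlda3 changed by -2.43, a row named GADD45B (ENSDARG00000027744) by -3.21 and GADD45A by -1.54. Without melanoma replicate 1 the GADD45B row changed by -3.96, and without melanoma replicate 2 GADD45A changed by -2.35. The GADD45A call was lost when any 1 of 6 libraries was left out, with adjusted p between 0.0630 without scale replicate 1 and 0.111 without melanoma replicate 3.

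Other rows of the damage-induced list rose. The repair members ddb2 and xpc, which are not on that list, are induced by damage in human cells too. Of these xpc did not pass in the edgeR test (adjusted p = 0.0541), though it did under limma-voom (0.0461) and total counts (0.000888). The phosphatase gene ppm1d had 2 rows, ENSDARG00000009273 and ENSDARG00000021380, with log2 changes of 2.74 and 3.01, the second of them added once values were known. The first had 11, 5.74, 12.9 and 16.7 CPM in melanoma, against 2.12, 1.24, 2.43 and 1.13 CPM in the scale libraries. No melanoma library overlapped the scale range in either row. Of the 2 rows named PLK2, a stress-induced kinase, ENSDARG00000019130 changed by 3.23 and ENSDARG00000090752, also added then, by -2.32, or by -2.94 without melanoma replicate 2. The redox gene sesn1, chosen after its values were seen, changed by 2.53 (adjusted p = 0.0104), with melanoma replicate 1 highest, and lost the call without scale replicate 1 (0.0563) or scale library 3a (0.0520). Its change was 1.45 without melanoma replicate 1. The gene mdm2, for the ligase that degrades p53, was also chosen after its values were seen. It had 22.0, 47.5, 19.2 and 18.7 CPM in melanoma, against 8.19, 18.1, 14.2 and 18.2 CPM in the scale libraries. It did not pass although the groups did not overlap (change 0.87 ± 0.42 on the log2 scale, adjusted p = 0.120).

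With total counts alone 8 of these rows were higher and 3 lower, where 40.6% of all genes were higher and 1778 genes lower. The balance of the list thus moved with the scaling, as did that of all genes. Of 10 rows of stress transcripts, from immediate early and heat response genes, 8 were lower and 1 higher in melanoma. Of all genes 15.2% were lower and 21.7% higher. The stress list was compiled once the values had been seen. Its rows summed to between 1077 and 2994 CPM in melanoma and between 29193 and 49595 CPM in the scale libraries. Their part in the levels of the damage-induced genes was not tested.

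**Figure D5:**
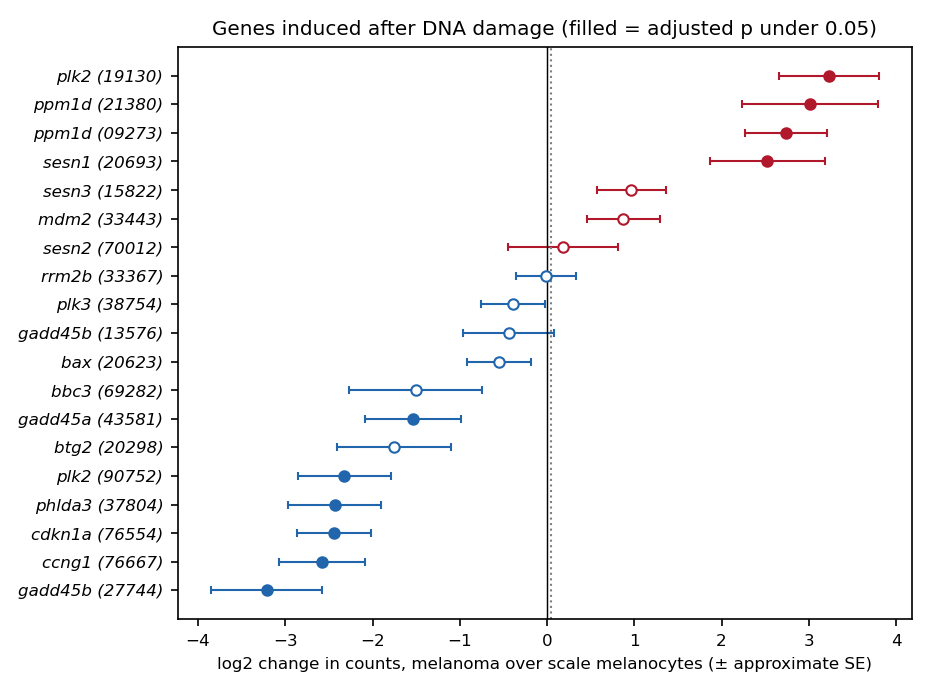
Log2 change, melanoma over scale melanocytes, of 19 rows of genes induced after DNA damage, with the approximate SE as bars and the last digits of the identifier in brackets. Filled points passed an adjusted p of 0.05: 4 lie right of 0, up to 3.23 for a row named PLK2, and 6 left of it, down to -3.21 for a row named GADD45B.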

How the data were processed

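Gene expression was measured by RNA-seq in 4 melanoma and 4 scale melanocytes libraries. The counts deposited by the authors are whole reads per Ensembl gene, not normalized. They also deposited a normalized signal for each gene, which equals the count over a constant for its library, and which served here only to recover the size factors of the authors. The submitters' processing notes name STAR 2.3, HTSeq, DESeq2 and build Zv9, with no role or order; neither the annotation release nor the strand setting was given in the sources used here. RNA was extracted with Trizol and libraries were made with TruSeq chemistry, per the labels' protocols. The smallest row sum was 40 counts.

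Columns were matched to samples by name. The columns sharing the name of replicate 3 were used as scale melanocytes without a replicate number, and no per-sample column was left unused. No libraries agreed within counting noise. Symbols were known for 19599 of 28272 identifiers. Symbols were matched as written or without the paralog letter.

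Genes kept by filterByExpr, 26749, were tested by the quasi-likelihood method of edgeR 4.0.16 in R 4.3.3, with TMM factors and no term besides the group; p-values were adjusted by the Benjamini-Hochberg method and called under 0.05. Alternatives used DESeq2 1.42.0, limma 3.58.1 (voom), other scalings, filters and thresholds, a replicate block and omitted libraries. The test was checked on simulated counts. Members and lists were chosen with earlier results of these data known. All members are named. The cell type markers mc1r, ptprc and alas2 were picked out singly once values were known. Outside these, up to 2 risen and 2 fallen genes per list were named by adjusted p, and any other gene is marked as chosen after its values were seen. A few of the genes so named are not reported here. Depth was 86888494 to 100270657 counts, and rows near 0 CPM rest on few of them. Python 3.11.15, pandas 2.3.3 and matplotlib 3.10.9 made tables and figures.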

Additional observations from a re-analysis of the deposited data

Results flagged for a closer look

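In 14 of 170 groups of 4 libraries looked at (levels of the members, of the genes named by rule and of the lists), 1 library stood apart from the other 3 by Dixon's 95% criterion, which compares the gap to the nearest library with the whole range of the group. For independent, normally distributed groups chance would flag about 1 in 20. These groups share the same libraries and the lists share genes with single rows, so the 14 cannot be set against that rate. Of the 14, 5 were levels of members.

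For chek2 melanoma replicate 1, at 4.0 CPM, lay below melanoma libraries at 17.2, 17.5 and 16.2 CPM (gap over range 0.906), and scale library 3a lay above the other scale libraries (0.906). In the scale libraries lig4 stood high in the same library (0.889), the ung row ENSDARG00000042527 low in replicate 2 (0.864) and the ung row ENSDARG00000094922 high in replicate 2 (0.845).

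Outside the members, melanoma replicate 1 was the low library for smc5 (0.928), for the list of other homologous recombination genes (0.834) and for the list of other nucleotide excision repair genes (0.940). Melanoma replicate 2 was the high library for the PLK2 row ENSDARG00000019130 (0.856) and ccng1 (0.835), and melanoma replicate 3 for dclre1c (0.921). Among the scale libraries library 3a was high for smc5 (0.887), and library 3b was low for gtf2h3 (0.932) and for the base excision and single-strand break repair members (0.922). Explanations were not tested.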

How the results depend on the processing

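In 764 comparisons of a member with an alternative setting, 648 kept direction and side of the threshold, 48 lost the call, 32 gained one and 36 changed sign, none of the last in a called member. The settings of an adjusted p of 0.01 and of at least a 2-fold change reused the reported fit. A member could lose a call there but could not gain one or change sign. Members called higher numbered 30 with total counts alone, 9 of 24 tested with the 5 CPM filter, 10 at an adjusted p of 0.01 and 10 without the 2 less complex scale libraries. With 1 library left out they numbered 12 to 20, and 0 were lower in any setting. Rows could enter the 5 CPM filter through the melanoma libraries alone, the group where the called members were higher. Of all genes 40.6% were higher with total counts alone, 26.9% with the 5 CPM filter and 13.3% at an adjusted p of 0.01. The share was 17.8% without the 2 less complex scale libraries, and 14.6% to 21.4% with 1 library left out. Over all genes 10873 were higher and 1778 lower with total counts, 3565 and 2412 at 0.01, and 3272 were higher with the 5 CPM filter, where fewer genes were tested. Of the other repair genes 35 were higher with that filter, and the 1 lower became 3 with upper quartile scaling, 3 with the filter, and 0 with total counts, at 0.01, with the exchanged block and without the less complex libraries; with 1 library left out it was 0 to 1. Damage-induced genes were 8 higher and 3 lower with total counts and 2 higher at 0.01. Cohesin genes called higher numbered 6 to 10 with 1 library left out. The causes of these changes were not tested.

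The replicate number as a block gave 15 members higher, and 13 with the columns of shared name exchanged, 13 of the 16 kept in each. Of all genes 18.9% and 18.2% were higher in these fits. Deviations from the group means correlated at -0.0384 for number 1 and 0.120 for number 2. The columns of shared name gave 0.169 and -0.0341 in 1 order and -0.164 and 0.0664 in the other. Such correlations cannot tell whether libraries of the same number shared a fish, as each group was centred on its own 4 libraries. Calls of rad54l, fanci and xrcc1 were lost under the block.

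Changes of sign in members that did not pass were as follows, with the reported change in brackets. For atm (0.44) the change was -0.0139 with upper quartile scaling, -0.21 with the 5 CPM filter and -0.0180 with the less complex libraries left out. For nbn (0.11) the change was -0.0153 with DESeq2, -0.0148 with RLE, -0.35 with upper quartile scaling, -0.00780 with the authors' size factors and -0.18 with the less complex libraries left out, and -0.23 to 0.23 with 1 library left out. For rad52 (-0.22) the change was 0.95 with total counts and 0.0360 with the less complex libraries left out, and -0.59 to 0.11 with 1 library left out. For bard1 (0.23) the change was -0.25 with upper quartile scaling, -0.47 with the 5 CPM filter and -0.45 with the less complex libraries left out, and -0.24 to 0.44 with 1 library left out. For fancc (-0.17) the change was 0.77 with total counts, and -0.66 to 0.17 with 1 library left out. For prkdc (0.54) the change was -0.15 with the 5 CPM filter. For pms2 (0.28) the change was -0.10 with limma-voom, -0.20 with upper quartile scaling, -0.16 with the replicate block and -0.13 with the exchanged block, and -0.26 to 0.59 with 1 library left out. For the ung row that was near the floor (-1.04) the change was 0.36 with limma-voom, 0.52 with total counts, 1.47 with the replicate block, 1.46 with the exchanged block and 0.75 with the less complex libraries left out, and -1.63 to 1.27 with 1 library left out. Members near the floor rested on few counts, and 3 rows had a count of 0 in at least 1 library.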
